A study of Mus musculus with 9 samples.

Results

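The interferon-stimulated genes described here are a list of 38 mouse genes that type I or type II interferon is known to induce. They were chosen by name, and each symbol was found once in a table of 56748 gene identifiers from sorted lung endothelial cells. All 38 passed the filter on low counts, among 19486 genes tested. The list holds 4 transcription factors and a co-activator among them, 4 nucleic acid sensors, 3 genes each of the OAS and IFIT families, 2 genes of the ISG15 system, 13 other antiviral and induced genes, 7 GTPases and 2 immunoproteasome subunits.

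RNA was sequenced from lung endothelial cells of C57BL/6 mice 6 weeks old. Cells negative for DAPI and CD45 and positive for CD31 were sorted from mice labelled WT, DNMAML or Notch1f/f, with 3 libraries for each genotype. In mouse genetics DNMAML stands for a truncated Mastermind-like protein with dominant-negative action on transcription downstream of every Notch receptor, and the f/f of Notch1f/f for loxP sites on both Notch1 copies. The sources used here do not give the recombinase that acts on either allele, its driver and timing, or whether WT mice carried it. They are also silent on whether each library is a separate mouse, so the p-values take in only the variation among libraries, which may be technical.

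Interferons are secreted proteins that cells release on sensing foreign or misplaced nucleic acid. Type I interferons bind the receptor of Ifnar1 and Ifnar2, and the kinases Jak1 and Tyk2 then activate a complex with Stat2 and Irf9 that binds the interferon-stimulated response element (ISRE) in promoters. Interferon gamma, made by lymphocytes, acts through Ifngr1 and Ifngr2 and leads to binding at the gamma-activated site (GAS). The products cleave RNA, arrest translation, hold virus particles at the membrane, mark vacuoles of microbes and change how peptides are cut for display to T cells. Endothelial cells carry both receptors and express many of these genes at a basal level.

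Total counts ran from 15522100 to 27842496 per library. Values are given as CPM, the count for each 1000000 counts of the TMM-scaled library, in the order of replicates 1, 2 and 3. The endothelial genes Cdh5 and Pecam1 (CD31) were at 5366 to 6656 and 3408 to 4353 CPM in the 9 libraries. Notch1, the gene named by the Notch1f/f label, was at 766, 909 and 811 CPM in WT, 679, 872 and 777 for DNMAML, and 70.8, 29.5 and 176 for Notch1f/f. All 3 Notch1f/f libraries were below all others, although the edgeR adjusted p against WT was 0.0634. Maml1, from whose family the DNMAML protein is named, was at 58.3 to 84.4 CPM in the 9 libraries. It had no detectable difference of DNMAML from WT (log2 0.07 ± 0.15, adjusted p = 0.999), so this gene gives no check of the DNMAML label. No other gene was examined for such a check here. The leukocyte gene Ptprc, which encodes the CD45 used to exclude cells in the sort, was at 4.99, 2.95 and 0.408 CPM in WT, 28.0, 26.7 and 1.39 in the DNMAML libraries, and 14.5, 4.96 and 1.58 in Notch1f/f. In bulk RNA, fewer cells of a type and less RNA per cell cannot be told apart.

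The promoters show a sequence that many of these genes share. RefSeq windows from 250 bases before to 50 bases after the annotated start were found for 26 of the 38 genes on build GRCm38.p6. The ISRE was searched as GAAANNGAAA on both strands, and it was present in 15 of these 26 genes (57.7%), against 3.99% of the 27025 symbols with a window. The GAS, searched as TTCNNNGAA (the same on both strands), was present in 8 of 26 (30.8%, against 9.55%). A site of RBPJ, the DNA-binding partner of Notch, was searched as GTGGGAA on both strands and was present in 2 of 26 (Eif2ak2 and Isg15, 7.69%, against 7.25%). The GAS match of Bst2 overlaps its ISRE match by the last letters. A match is a description of these letters and no evidence of binding.

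The ISRE stretches below belong to the genes whose values are given library by library, read in the direction of the gene, with every base of an ISRE match in capitals. The match, or run of matches, is flanked by up to 20 bases.
Isg15: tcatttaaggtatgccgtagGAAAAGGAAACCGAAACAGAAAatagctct
Oas1a: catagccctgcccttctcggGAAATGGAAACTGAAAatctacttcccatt
Bst2: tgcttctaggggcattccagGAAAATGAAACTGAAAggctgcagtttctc
Igtp: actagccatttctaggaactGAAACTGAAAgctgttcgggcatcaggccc
Ifih1: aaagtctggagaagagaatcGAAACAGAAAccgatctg
Ifit3: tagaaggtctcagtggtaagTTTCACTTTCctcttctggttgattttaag
Gbp2: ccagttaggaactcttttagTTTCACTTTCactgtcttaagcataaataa
Rsad2: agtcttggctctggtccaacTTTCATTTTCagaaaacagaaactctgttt
Stat2: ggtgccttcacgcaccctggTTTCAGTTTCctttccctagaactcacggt
Isg15 is at chr4:156200867-156200916 on the minus strand and held 3 overlapping matches in a row, the highest number of the 9 stretches. Oas1a (chr5:120907516-120907565, minus strand) and Bst2 (chr8:71537573-71537622, minus strand) held 2 overlapping matches each. The stretches of Igtp (chr11:58199502-58199551, plus strand) and Ifih1 (chr2:62646206-62646243, minus strand) held a single match in the direction of the gene. In Ifit3 (chr19:34583353-34583402, plus strand), Gbp2 (chr3:142620584-142620633, plus strand), Rsad2 (chr12:26456543-26456592, minus strand) and Stat2 (chr10:128270256-128270305, plus strand) the match was on the opposite strand.

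The window of Xaf1, the member with the clearest difference below, held no match to any of the searched motifs. It is shown whole, at chr11:72301379-72301678 on the plus strand, with each 4-letter unit of an ISRE (GAAA or TTTC) in capitals.
Xaf1: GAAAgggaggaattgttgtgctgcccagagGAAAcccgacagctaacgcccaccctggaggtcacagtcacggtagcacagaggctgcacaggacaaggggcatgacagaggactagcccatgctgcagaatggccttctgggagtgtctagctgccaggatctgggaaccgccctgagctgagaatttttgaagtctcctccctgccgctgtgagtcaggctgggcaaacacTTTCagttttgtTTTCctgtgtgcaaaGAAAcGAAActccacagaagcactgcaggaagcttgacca
It held 4 GAAA and 2 TTTC, and a pair of GAAA that begin 11 and 16 bases into the transcribed part is separated by 1 base where the searched ISRE has 2.

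In WT the 38 genes lay high among all genes. Per kb of exon, which allows levels of genes to be compared, their median was 18.1 CPM per kb against 2.81 for all genes tested, and 36 of 38 were above the latter. Bst2, which encodes tetherin and holds budding virus at the cell surface, was highest at 101 ± 9.3 CPM per kb (SD, n = 3). It was followed by the secreted glycoprotein gene Lgals3bp at 76.3 ± 10.4 and the GTPase gene Gbp2 at 59.9 ± 8.56 CPM per kb, and the intervals of mean ± SD of these last neighbours overlap, while that of Bst2 lies above both. Rsad2 at 2.1 ± 0.682 and Mx1 at 0.312 ± 0.215 CPM per kb were the 2 genes below the median of all genes. Mx1 is known to be inactivated by a deletion in most inbred laboratory mice, C57BL/6 included. Its lowest value was 0.51 CPM, from 10 counts.

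**Figure D1:**
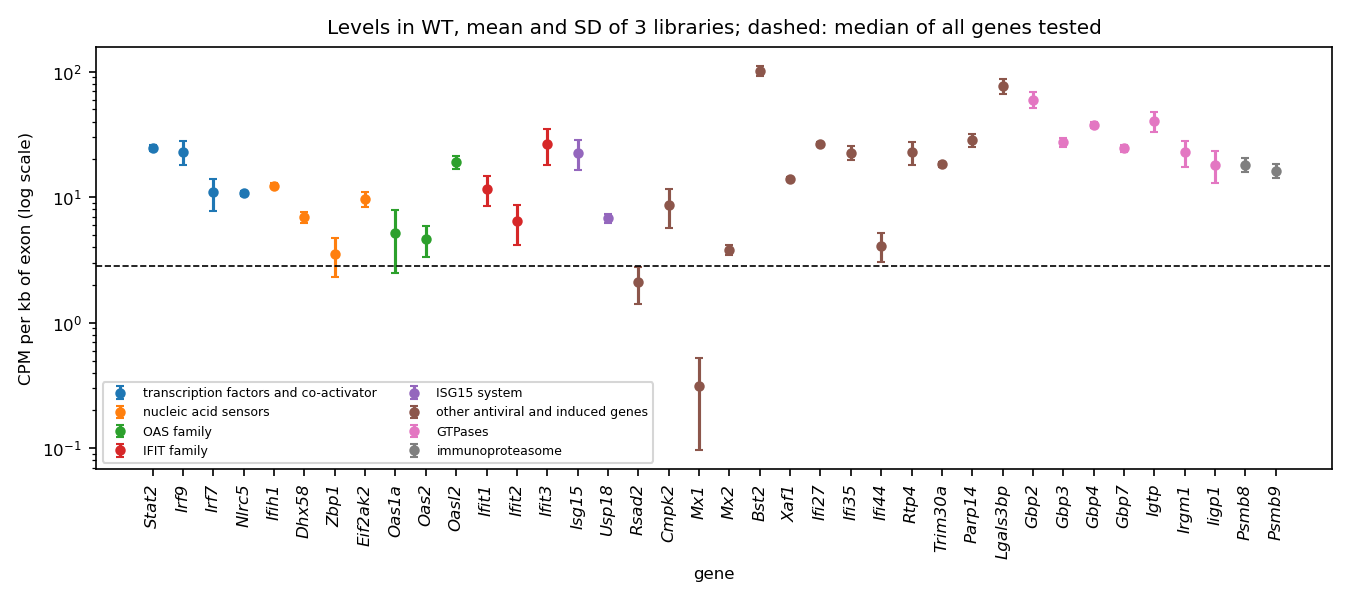
Levels of the 38 genes in the 3 WT libraries, in CPM per kb of exon on a log axis, as mean and SD (n = 3), coloured by role; the dashed line is the median of all genes tested. Bst2 is highest at 101 CPM per kb, and Rsad2 and Mx1 lie below the dashed line.

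Across genotypes, most of these genes did not differ beyond the spread between libraries. In DNMAML against WT, 0 of 38 passed edgeR's quasi-likelihood test at an adjusted p of 0.05 (background 0.00513% of all genes tested). In Notch1f/f against WT, Xaf1 was the 1 gene of 38 that passed, and it rose (background 0.836%). Between Notch1f/f and DNMAML, 0 of 38 passed (background 0.0205%). At an unadjusted p below 0.05 the counts were 6 (background 5.97%), 6 (13.4%) and 8 (6.37%). The 8 between Notch1f/f and DNMAML were Xaf1 and the 7 GTPases, and each of these GTPases was highest in DNMAML replicate 1. In the fit without that library, Igtp and Irgm1 were the only GTPases still below an unadjusted 0.05.

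The estimates leaned in different directions all the same. In DNMAML 35 of 38 estimates were above WT (92.1%, against 51.1% of all genes tested), with a median log2 difference of 0.30 against 0.01 for all genes. In Notch1f/f 18 of 38 were above WT (47.4%, against 51.8%), with a median of -0.01 against 0.02. Between Notch1f/f and DNMAML 8 of 38 were higher in Notch1f/f (21.1%, against 50.5%), with a median of -0.23 against 0.00. The first 2 comparisons share the WT libraries, and the third reuses both other groups, so the 3 medians are not independent.

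The median of DNMAML rested in good part on 2 libraries. It was 0.11 without DNMAML replicate 1 and 0.17 without WT replicate 2, and that of Notch1f/f against DNMAML was -0.11 without DNMAML replicate 1. DNMAML libraries did not overlap WT libraries in 8 genes that were higher and 1 that was lower (background 14.4% in either direction). Notch1f/f libraries did not overlap WT libraries in 5 higher and 2 lower genes (17.8%), nor DNMAML libraries in 1 higher and 5 lower genes (9.72%).

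**Figure D2:**
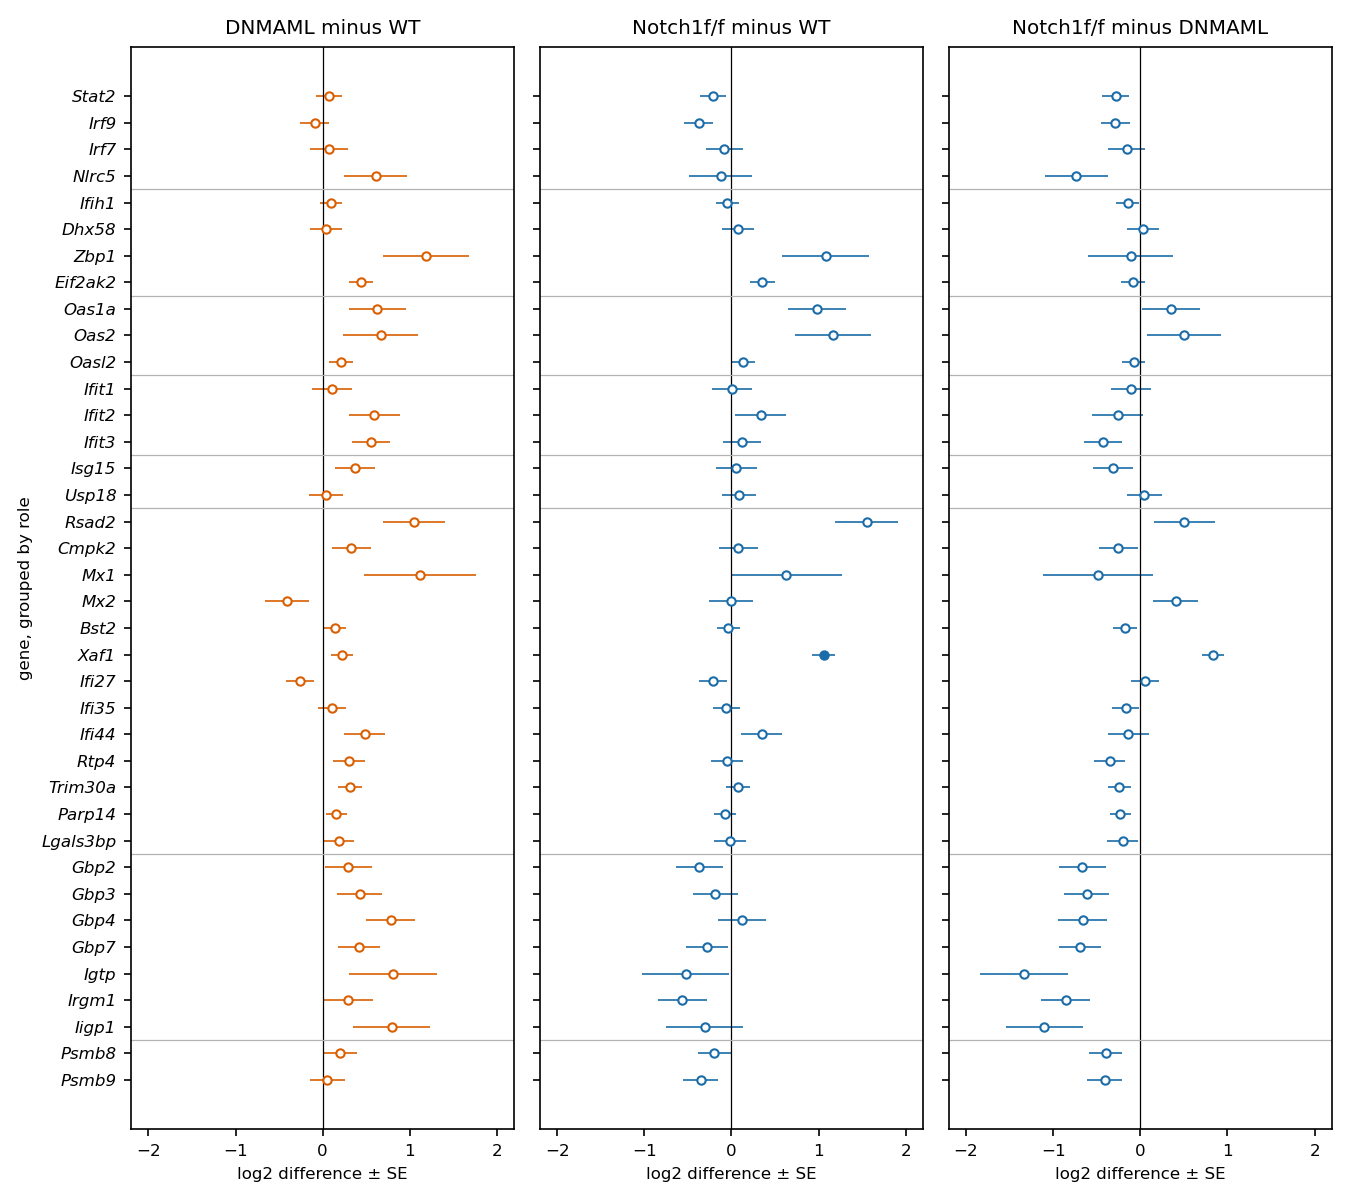
Log2 differences of the 38 genes with their SE in the 3 comparisons, from the fit to all 9 libraries, grouped by role; filled points passed the adjusted threshold and open points did not. Xaf1 in Notch1f/f minus WT, at 1.06, is the only filled point.

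Of the transcription factors, Stat2, which acts with Irf9 under type I interferon, had the highest level per kb. It was at 144, 140.4 and 154 CPM in WT, 190.3, 140.3 and 130.2 for DNMAML, and 123, 141 and 115 for Notch1f/f, and the groups overlapped. Its DNA-binding partner Irf9 was at 131, 93.9 and 147 CPM in WT and at 94.5, 95.5 and 96.1 in Notch1f/f, all 3 of which lay above the lowest WT library and below the other two (log2 -0.38 ± 0.16, adjusted p = 0.345). Irf7, the factor that amplifies type I interferon production, had log2 differences of 0.07 and -0.08 from WT in DNMAML and Notch1f/f. The co-activator of MHC class I genes, Nlrc5, was at 89.5, 89.0 and 96.7 CPM in WT, 214, 125 and 81.9 in the DNMAML libraries, and 117, 81.4 and 54.1 in Notch1f/f; it was chosen for values in every library after they were seen. One DNMAML library was well above the WT range, another was below it, and neither difference from WT passed (0.61 ± 0.36 and -0.13 ± 0.36 on the log2 scale). Irf7, Irf9 and Nlrc5 share exon bases with a neighbouring gene, so their counts are uncertain.

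Among the sensors, Ifih1, which encodes the long double-stranded RNA sensor MDA5, varied little. It was at 103, 95.5 and 103 CPM in WT, 121, 106 and 96.2 for DNMAML, and 95.8, 87.0 and 110.0 for Notch1f/f, with overlap throughout. Zbp1, the Z-form nucleic acid sensor that can start necroptosis, varied more, at 13.8, 7.56 and 15.7 CPM in WT, 48.0, 25.2 and 11.3 in the DNMAML libraries, and 25.6, 34.5 and 18.3 in Notch1f/f. All 3 Notch1f/f libraries were above all WT libraries (log2 1.08 ± 0.50, adjusted p = 0.391), while DNMAML replicate 3 was within the WT range (1.19 ± 0.50, adjusted p = 0.799). Eif2ak2, which encodes the kinase PKR that stops translation on double-stranded RNA, had 45.1 to 57.7 CPM in WT, 65.3 to 70.4 in DNMAML and 58.0 to 73.7 in Notch1f/f. Neither range touched that of WT, but the differences of 0.44 ± 0.14 (adjusted p = 0.506) and 0.36 ± 0.14 (adjusted p = 0.277) did not pass. Dhx58, the regulator LGP2, was at 19.1 to 26.9 CPM over all 9 libraries, and its exons overlap those of an antisense gene.

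OAS enzymes make the second messenger that activates RNase L, and the 3 family members had their highest value of all 9 libraries in Notch1f/f replicate 2. Oas1a was at 7.64, 6.09 and 15.7 CPM in WT, 16.2, 17.9 and 11.4 for DNMAML, and 18.6, 22.3 and 17.2 for Notch1f/f. The Notch1f/f libraries were all above the WT libraries, with a log2 difference of 0.98 ± 0.33 that did not pass (adjusted p = 0.194). Oas2, named here after its values were seen, was at 18.2, 16.5 and 27.1 CPM in WT, 34.1, 48.2 and 15.9 in the DNMAML libraries, and 54.6, 58.2 and 25.9 in Notch1f/f. In both mutant groups 2 libraries were high and replicate 3 was at or near the WT range (Notch1f/f minus WT 1.17 ± 0.43, adjusted p = 0.272). Oasl2, a family member whose product resembles a ubiquitin chain at its end, was the highest per kb and the flattest, at 125, 106 and 134 CPM in WT, 149.6, 138 and 136 for DNMAML, and 134, 153 and 115 for Notch1f/f. Its DNMAML libraries were just above the WT libraries (0.21 ± 0.14).

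IFIT proteins bind foreign RNA and block its translation, and the 3 genes lie near each other on chromosome 19. Their lowest value of all libraries was in WT replicate 2 for each of them. Ifit3 was at 62.8, 34.4 and 41.7 CPM in WT, 83.5, 54.8 and 65.5 in the DNMAML libraries, and 45.1, 55.8 and 50.7 in Notch1f/f. DNMAML exceeded WT within each replicate number although the groups overlapped, with a log2 difference of 0.55 ± 0.22 (adjusted p = 0.717). Replicate numbers were taken to pair the WT and DNMAML libraries from correlations over all genes, a pairing that the labels do not state. With the number as a replicate block in these 2 groups alone, Ifit3 passed at 0.58 ± 0.11 (adjusted p = 0.0234, range over 18 alternatives 0.0234 to 1). Ifit2 had a DNMAML difference of 0.59 ± 0.29 and Ifit1 of 0.11 ± 0.23, and the corresponding Notch1f/f differences were 0.33 ± 0.29 and 0.01 ± 0.23.

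The ubiquitin-like protein Isg15 is attached to other proteins under interferon, and Usp18 removes it and also dampens the type I receptor. Isg15 was at 15.6, 11.7 and 19.98 CPM in WT, 20.5, 23.5 and 17.3 for DNMAML, and 14.6, 19.0 and 15.7 for Notch1f/f, and all groups overlapped. The DNMAML difference was 0.37 ± 0.23 on the log2 scale and that of Notch1f/f 0.06 ± 0.23. Usp18 was nearly level, at 15.7 to 22.9 CPM over the 9 libraries, with differences of 0.04 ± 0.20 and 0.09 ± 0.20.

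Xaf1, a pro-apoptotic binding partner of the inhibitor XIAP, rose in Notch1f/f. It is ENSMUSG00000040483 on chromosome 11, from 72192455 to 72204559 on build GRCm39, and shares no exon base with another gene. Its level was 66.3, 63.5 and 68.1 CPM in WT, 77.3, 83.1 and 70.9 in the DNMAML libraries, and 159.6, 127 and 125 in Notch1f/f. The WT libraries were tight, the DNMAML libraries were slightly above them, and the Notch1f/f libraries were far above both. The increase over WT was 2.08-fold (log2 1.06 ± 0.13, adjusted p = 0.00794). It held in 18 of 18 alternative settings, with log2 values from 0.93 to 1.12 and adjusted p from 1.54e-09 to 0.0491.

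Whether Xaf1 also differed between the mutants depended on the tool. In the main test the difference of Notch1f/f from DNMAML was 0.83 ± 0.13 with an adjusted p of 0.117, and it lay in the same direction in all 9 pairs of libraries. DESeq2 called it with an adjusted p of 3.53e-05 (range over 18 alternatives 3.53e-05 to 0.637, background 0.883%), as did the edgeR fit without a filter on low counts, and limma-voom did not. DNMAML minus WT was 0.23 ± 0.13 (adjusted p = 0.969), with all DNMAML libraries above all WT libraries.

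**Figure D3:**
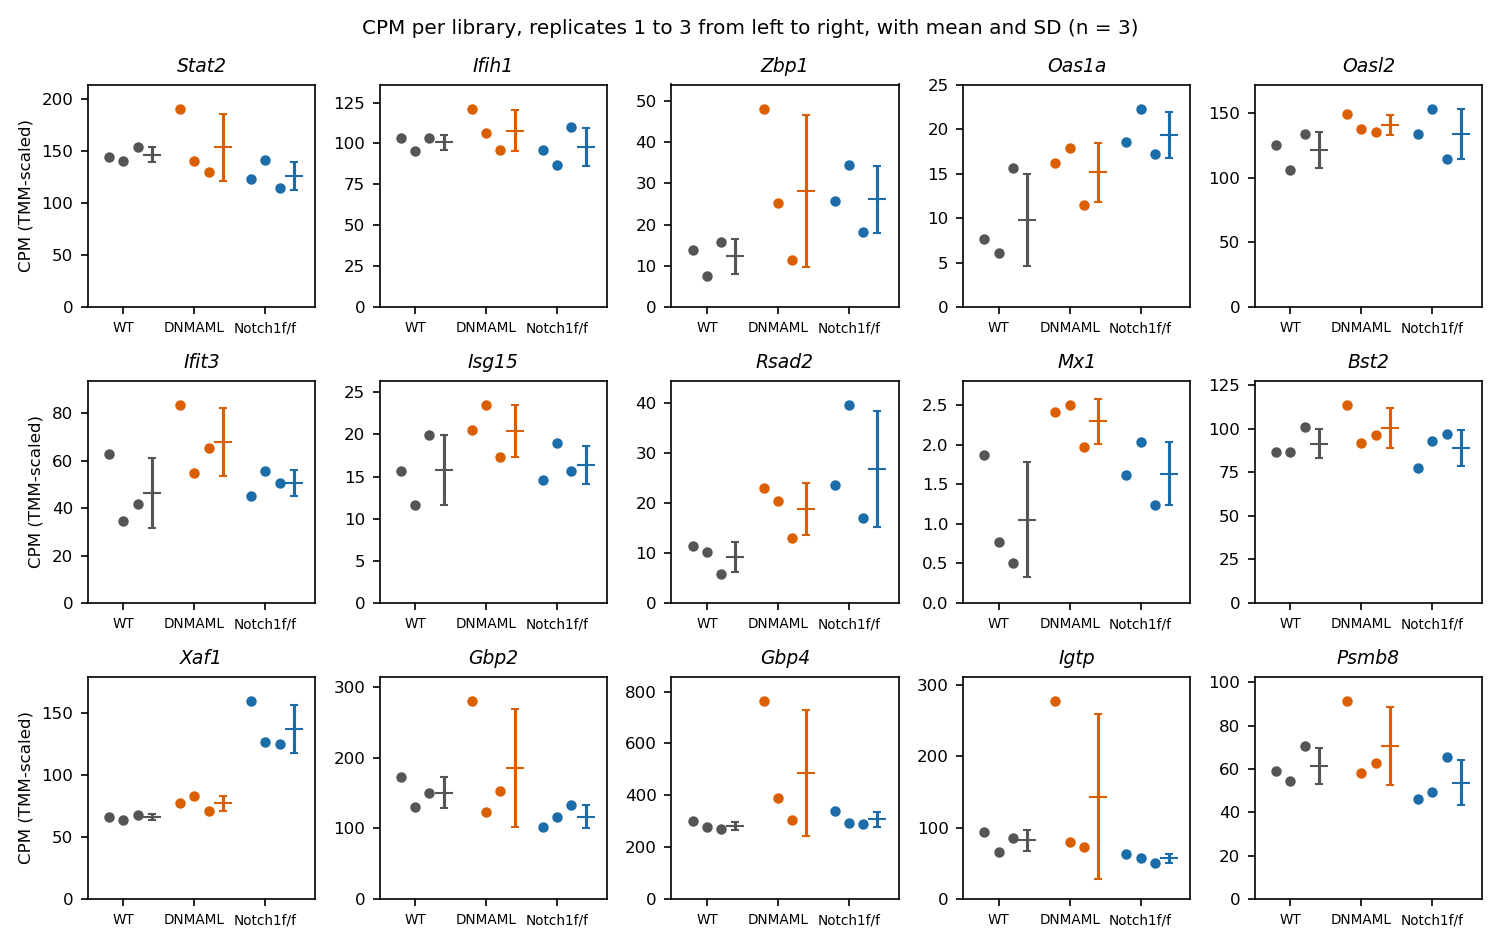
CPM in each library for the 15 genes given library by library, with replicates 1 to 3 from left to right within a genotype and the mean and SD (n = 3) beside them; each axis starts at 0. Xaf1 in Notch1f/f, at 125 to 159.6 CPM, is clear of the other genotypes, whereas Igtp, Gbp2 and Gbp4 are set apart by DNMAML replicate 1.

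Rsad2, which encodes viperin, an enzyme that makes a chain-terminating nucleotide, had the highest Notch1f/f estimate of the 38. It lies on chromosome 12 from 26492745 to 26506451 (GRCm39). It was at 11.3, 10.3 and 5.76 CPM in WT, 23.02, 20.4 and 13.0 for DNMAML, and 23.6, 39.5 and 16.9 for Notch1f/f. Every mutant library was above every WT library, and the mutant groups overlapped each other. The difference was 1.04 ± 0.35 for DNMAML (adjusted p = 0.564) and 1.55 ± 0.36 for Notch1f/f (adjusted p = 0.0688), neither of which passed.

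Several other settings called Rsad2. With the replicate block in the WT and DNMAML libraries alone, it passed at 1.06 ± 0.19 (adjusted p = 0.0214), and it and Ifit3 were the 2 of 38 called there (background 1.71%). Against WT, Notch1f/f passed with DESeq2 (adjusted p = 0.00213, background 5.48%), with the replicate block in all 9 libraries (adjusted p = 0.0151, background 1.43%) and without Notch1f/f replicate 3 (log2 1.79, adjusted p = 0.0363, background 1.4%). The replicate numbers did not pair Notch1f/f with WT, so the block has no clear basis in that comparison. Over the 18 alternatives the adjusted p of Rsad2 ran from 0.00855 to 1 in DNMAML, with 2 calls, and from 5.84e-07 to 0.248 in Notch1f/f, with 4 calls. Its head-to-head neighbour Cmpk2, a mitochondrial nucleotide kinase gene, did not follow it, with 24.6 to 49.0 CPM in WT, 39.3 to 54.3 in DNMAML and 35.6 to 39.3 in Notch1f/f.

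None of the remaining antiviral genes passed in any comparison. Bst2 was at 86.8, 86.5 and 101 CPM in WT, 114, 91.6 and 96.5 in the DNMAML libraries, and 77.5, 92.9 and 97.2 in Notch1f/f, with overlap between all groups. Mx1 was at 1.87, 0.769 and 0.51 CPM in WT, 2.41, 2.5 and 1.97 for DNMAML, and 1.61, 2.04 and 1.24 for Notch1f/f, so that DNMAML was just above WT at very low counts (1.12 ± 0.64, adjusted p = 0.972). The related Mx2 had the lowest DNMAML estimate of the 38, at -0.41 ± 0.25. Trim30a, an ubiquitin ligase gene, and Ifi44 lay in DNMAML at 89.9 to 96.3 and 32.0 to 36.8 CPM, above the WT ranges of 72.7 to 79.1 and 18.0 to 30.7, with differences of 0.31 ± 0.14 and 0.48 ± 0.24 that did not pass. Ifi27 was the gene whose DNMAML libraries were all below WT, at 30.6 to 36.4 CPM against a WT mean of 39.0 ± 1.03 CPM (SD, n = 3), with a log2 difference of -0.26 ± 0.16. Lgals3bp, Ifi35, Rtp4 and Parp14 had DNMAML differences from 0.11 to 0.30 and Notch1f/f differences from -0.07 to -0.02.

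GTPases of the GBP and IRG families coat vacuoles that hold microbes, and they are known chiefly as targets of interferon gamma. All 7 were highest of the 9 libraries in DNMAML replicate 1, and none passed in any comparison. Igtp (also called Irgm3, chromosome 11, 58090382 to 58098417, GRCm39) was at 94.2, 65.9 and 86.0 CPM in WT, 277, 80.3 and 73.0 in the DNMAML libraries, and 63.4, 57.1 and 50.3 in Notch1f/f. A single DNMAML library was about 3 times the WT level, the other DNMAML libraries were within the WT range, and the Notch1f/f libraries were below all others. Gbp2 was at 173, 129.7 and 149.8 CPM in WT, 280.2, 123 and 152 for DNMAML, and 101, 116 and 133 for Notch1f/f. Gbp4 was at 299, 277 and 272 CPM in WT, 763, 389.8 and 304 in the DNMAML libraries, and 339.6, 292 and 289 in Notch1f/f, and was the GTPase gene with every DNMAML library above WT (0.78 ± 0.28, adjusted p = 0.647). Igtp shares exon bases with Irgm2, and Gbp4 with Gbp8 and Gbp9, so their counts are uncertain.

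Summed over the 7 genes, the level was 1095, 853 and 994 CPM in WT, 2338, 1039 and 1013 for DNMAML, and 854, 852 and 838 for Notch1f/f. The Notch1f/f sums were thus very even and close to that of the lowest WT library. Single genes were less even. From Notch1f/f replicate 1 to 3, Gbp2, Gbp3 and Irgm1 rose, Gbp4, Gbp7 and Igtp fell, and Iigp1 was highest in replicate 2. In the fit without DNMAML replicate 1, the DNMAML difference from WT went from 0.81 to -0.10 for Igtp, from 0.79 to 0.11 for Iigp1, from 0.29 to -0.12 for Irgm1, from 0.30 to -0.13 for Gbp2 and from 0.78 to 0.30 for Gbp4. Gbp3 and Gbp7 went to 0.02 and 0.01. Against DNMAML, Notch1f/f had estimates from -1.33 to -0.61 for the 7 genes with an adjusted p of 0.632 or more, and from -0.44 to -0.18 without that library. Against WT the Notch1f/f estimates ran from -0.56 for Irgm1 to 0.12 for Gbp4, and none passed.

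The immunoproteasome subunits Psmb8 and Psmb9 replace standard subunits and change the peptides made for MHC class I. Psmb8 was at 59.1, 54.7 and 70.7 CPM in WT, 91.3, 58.3 and 62.6 in the DNMAML libraries, and 46.1, 49.5 and 65.6 in Notch1f/f, with DNMAML replicate 1 highest and all groups overlapping. Psmb9 was at 52.4 to 67.1 CPM in WT and 42.9 to 51.7 in Notch1f/f, just below WT (-0.35 ± 0.20, adjusted p = 0.495). Psmb8 shares exon bases with Gm20496 and Psmb9 with Tap1, both on the other strand, and no strand option is recorded for the counting, so their counts are uncertain. The same holds, on either strand, for Eif2ak2, Usp18, Ifi35, Rtp4, Parp14, Gbp2 and Gbp7, so that 15 of the 38 genes share exon bases with another gene.

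By library, the whole list was highest in the same library as the GTPases. DNMAML replicate 1 held the highest value of 20 of the 38 genes, against 9.31% of all genes tested, and WT replicate 2 held the lowest value of 16, against 14.6% of all genes. Within WT, replicate 2 was lowest for 30 of 38. The median log2 ratio to the WT mean over the 38 genes was 0.50 in DNMAML replicate 1, 0.12 and 0.07 in the other DNMAML libraries, and -0.18 in WT replicate 2. In Notch1f/f it was -0.05, 0.05 and -0.05.

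**Figure D4:**
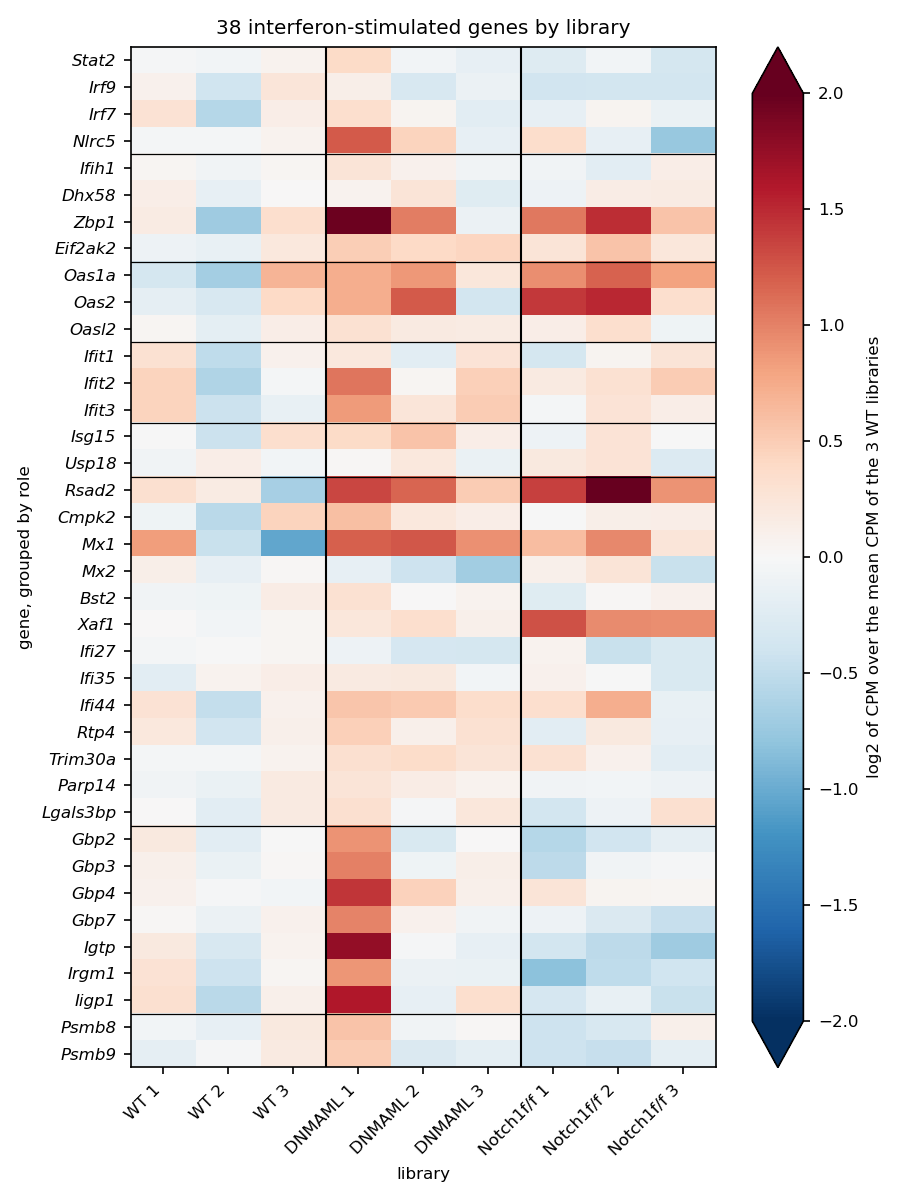
The log2 ratio of CPM to the mean of the 3 WT libraries for the 38 genes (rows, grouped by role) in the 9 libraries (columns); red is above and blue below the WT mean, and the scale ends at 2 either way. DNMAML replicate 1 is red for all 7 GTPases, Xaf1 is red in all 3 Notch1f/f libraries, and WT replicate 2 is mostly pale blue.

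Genes of other cell types and of tissue handling also differed between these libraries. The 7 leukocyte markers summed to 46.2, 16.3 and 8.26 CPM in WT, 128, 81.2 and 9.79 for DNMAML, and 52.0, 20.5 and 25.4 for Notch1f/f. The GTPase sum was 2338, 1039 and 1013 CPM in DNMAML replicates 1, 2 and 3. Ptprc was at a like level in replicates 1 and 2 and at 1.39 CPM in replicate 3, and a link between the 2 was not tested. The 7 platelet and red cell markers summed to 1042 CPM in DNMAML replicate 1 and to 110.5 to 477 CPM elsewhere, with the platelet chemokine gene Ppbp at 423 CPM there and 10.6 to 175 CPM elsewhere. The 11 lymphocyte markers, of which 3 could be tested, summed to 3.64, 1.41 and 1.43 CPM in WT. Their sums were 5.9, 6.94 and 1.79 CPM for DNMAML and 5.19, 6.64 and 2.71 CPM for Notch1f/f. The 7 neutrophil markers summed to 59.5 and 108 CPM in DNMAML replicates 1 and 2 and to 2.31 to 16.2 CPM elsewhere. The 13 macrophage and monocyte markers, led by Lyz2, summed to 127 to 828 CPM with the highest sum in WT replicate 3. Of the 7 of these that were tested, however, that library was highest for 1 and lowest for 4. DNMAML replicates 1 and 2 were highest for 3 each (9.31% and 9.2% of all genes tested). The 7 epithelial markers also had their highest sum in WT replicate 3, at 2718 CPM, against 120 to 1351 CPM elsewhere. The immediate early gene Fos was low in WT replicate 2, DNMAML replicate 2 and Notch1f/f replicate 1 (319, 345 and 495 CPM) and at 1229.7 to 2006 CPM in the other 6. Of 6 mural markers 4 fell in Notch1f/f against WT (background 0.836%), and of 8 cell cycle genes 1 rose in DNMAML (background 0.00513%) and 4 in Notch1f/f (0.836%). The part of these in the values of the interferon-stimulated genes was not tested.

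**Figure D5:**
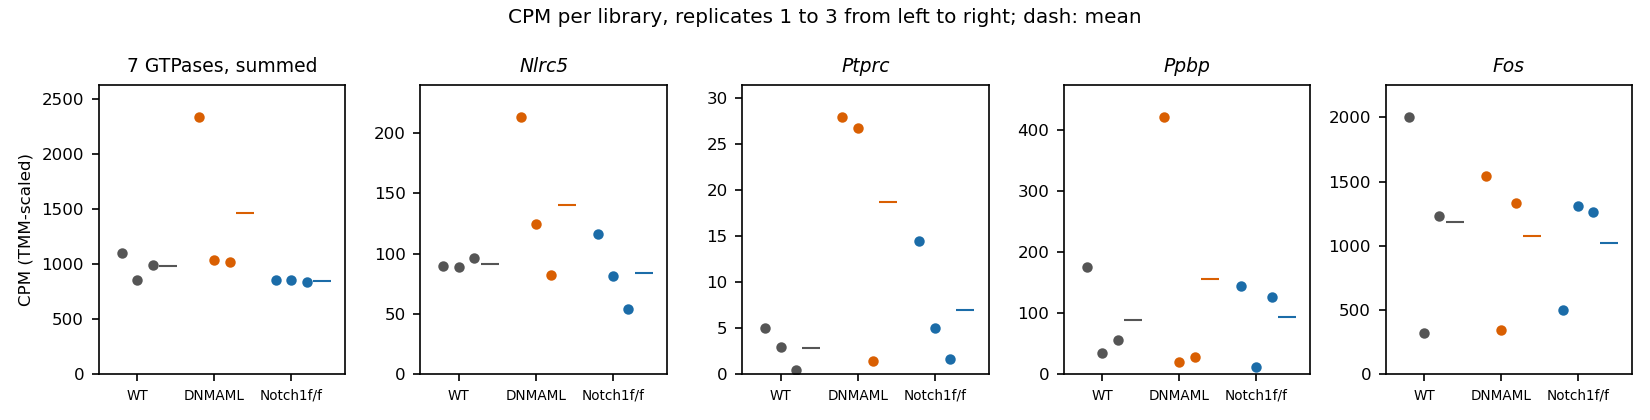
CPM in each library, replicates 1 to 3 from left to right, for the summed 7 GTPases, Nlrc5, the leukocyte gene Ptprc, the platelet gene Ppbp and the immediate early gene Fos; dashes are group means and each axis starts at 0. DNMAML replicate 1 is highest in the first 4 panels, and DNMAML replicate 2 is close to it for Ptprc only.

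Upstream of these genes, none of 11 interferon genes listed could be tested, and 8 of them, Ifnb1 among them, had 0 counts in every library. A count of 0 allows a level of up to 0.11 CPM in the deepest and 0.192 CPM in the shallowest library, for counting error only. These limits take each count as a separate fragment, and they are higher if a fragment enters as 2 reads. The 3 with a few reads were Ifnk, at 0.676 CPM or less, Ifng, at 0.3 CPM in DNMAML replicate 2 alone, and Ifnz, at 0.146 CPM in DNMAML replicate 3 alone. Of 10 genes on the receptor and kinase list none passed in any comparison. Jak1 was at 399 to 540.3 CPM, Ifnar1 at 126 to 187 and Jak2 at 72.7 to 114 CPM over the 9 libraries. Ifngr1 was at 216 to 232 CPM in WT, 203 to 267 in DNMAML and 276 to 303 in Notch1f/f. Its Notch1f/f libraries were above all others (against WT log2 0.33 ± 0.13, edgeR adjusted p = 0.265). Those of Ifngr2 and Tyk2 were below all WT libraries. Libraries of Notch1f/f and WT thus did not overlap in 1 higher and 2 lower genes of the 10 (background 17.8%).

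A broader list of 74 other interferon-induced genes, of which 73 were tested, gave medians in the same order. The median log2 difference was 0.23 in DNMAML and -0.04 in Notch1f/f against WT, and DNMAML replicate 1 held the highest value of 29 of 73 (39.7%, against 9.31% of all genes tested). Part of these 29 repeats the pattern of the GTPases. The list holds 10 other GTPase genes of the GBP and IRG families, grouped after their values were seen, and 9 of these were highest there. Of the 73 genes none rose against WT, and 1 fell in Notch1f/f (background 0.836%): Xdh, the xanthine dehydrogenase gene, at 878, 969 and 876 CPM in WT, 574, 378 and 476 for DNMAML, and 375, 263 and 321 for Notch1f/f (Notch1f/f minus WT -1.50, adjusted p = 0.00793). Of 16 antigen presentation genes none passed, and 14 were highest in DNMAML replicate 1 (87.5%, against 9.31% of all genes), with the MHC class II invariant chain gene Cd74 at 995 CPM there and 152 to 472 CPM elsewhere. In Notch1f/f 2 of these 16 had estimates above WT (12.5%, against 51.8% of all genes), with a median of -0.18 against 0.02. The abundant H2-D1, B2m and H2-K1, which make up MHC class I molecules, were at 1546 to 2312, 1314 to 2469 and 1279 to 2028 CPM.

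None of 18 sensor and adaptor genes, 9 feedback genes or 5 chemokine and surface genes tested passed in any comparison. The most abundant sensors and adaptors were level, with Trim25 at 128 to 172, Dtx3l at 111 to 151, Rigi (the short double-stranded RNA sensor RIG-I) at 117 to 145 and the kinase gene Tbk1 at 97.7 to 128 CPM. Of the feedback genes, Irf2 at 120.2 to 151 and Pias1 at 60.1 to 81.5 CPM were level too, and Samhd1 was at 188 to 207 CPM in WT and 132 to 150.5 in Notch1f/f (adjusted p = 0.219). Socs3, an inhibitor of JAK kinases, was at 1303, 331 and 1062 CPM in WT, 804, 248 and 894 in the DNMAML libraries, and 283, 849 and 938 in Notch1f/f. It was low in the same 3 libraries as Fos. Of the chemokine and surface genes, Cxcl16 was at 33.7 to 50.5 CPM in WT and 14.6 to 28.1 in Notch1f/f (adjusted p = 0.13), the PD-L1 gene Cd274 was at 11.2 to 59.7 CPM with the highest value in DNMAML replicate 1, and the chemokines Cxcl10 and Cxcl9 were at 1.16 to 14.7 and 1.07 to 7.22 CPM. The most abundant of the broader list besides Xdh were Ly6e at 1134 to 1554, Rnf213 at 548 to 884 and Ifitm3 at 323 to 642 CPM, none of which passed.

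The counts of called genes depended on the test. DESeq2 called 0, 2 and 1 of the 38 in the 3 comparisons (backgrounds 1.09%, 5.48% and 0.883%), and limma-voom called 0, 1 and 0 (0%, 0.354% and 0.0205%). Without a filter on low counts, edgeR called 6, 7 and 9 (1.38%, 4.26% and 2.09%), among them Igtp in each comparison.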

How the data were processed

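RNA of sorted lung endothelial cells was measured by RNA-seq in 9 libraries, 3 for each genotype, grouped by their titles. Per the labels, libraries were strand-specific total RNA libraries (CORALL with RiboCop depletion of ribosomal RNA), made as 1 batch. The deposited table holds read counts per gene, made with featureCounts 2.0.1 on an Ensembl 107 annotation of GRCm39 per the file headers, which give no strand, pair or multi-mapping option. The submitters' processing notes name STAR 2.7 and mm10, another build, so coordinates of genes are those of the table (GRCm39) and promoter sequences those of RefSeq (GRCm38.p6). Between 76.6% and 89.0% of the counts below 200 were even, so a fragment may enter as 2 reads. Symbols were found for 52073 of 56748 identifiers.

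Tests of the counts used edgeR 4.0.16 under R 4.3.3 (TMM scaling, filterByExpr by genotype, robust quasi-likelihood fit to all 9 libraries), with Benjamini-Hochberg adjustment over 19486 genes and a threshold of 0.05. The SE is the log2 difference divided by the root of F. DESeq2 1.42.0, limma-voom 3.58.1, other filters, scaling and samples, halved counts and a replicate block were alternatives. The scripts were tested on simulated data. Levels of different genes were compared per kb of exon only.

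The labels give each genotype replicates 1 to 3. Over all genes, deviations from the group means of same-numbered WT and DNMAML libraries correlated at r = 0.238, 0.344 and 0.179, and those of differently numbered ones at -0.270 to 0.0774, so the numbers were taken to pair these groups. Notch1f/f did not pair with WT (-0.130, -0.0244 and 0.191) or DNMAML (-0.120, 0.0645 and 0.212). Replicate 1 of Notch1f/f correlated at r = 0.352 with WT replicate 2 and at 0.306 with DNMAML replicate 2, although the numbers differ. Fos was low in all of these libraries. The labels state no pairing, and whether the shared deviations follow the number or the level of Fos was not tested.

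The 38 genes and the other lists were chosen with earlier results of these data known. Values in every library are given for 15 genes: those past the threshold in the main or a replicate block fit, those whose mutant libraries do not overlap WT with a log2 difference of at least 0.5, and the highest per kb in each role. The other 23 are given by range and count, unless said. Of the other lists, genes past the threshold and the 4 most abundant are named.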

Additional observations from a re-analysis of the deposited data

How the results depend on the processing

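Xaf1 passed in Notch1f/f against WT in 18 of 18 alternatives. Of 2052 values of single genes under the alternatives, 2015 stayed on the same side of the threshold and either kept their sign or changed it by less than the SE, and 27 newly passed. In 10 an estimate that had not passed changed sign by more than its SE (Igtp, Gbp2 and Irgm1 in DNMAML against WT without DNMAML replicate 1 among them), and no called value was lost or reversed. Without a filter on low counts, 6 genes passed in DNMAML against WT, 7 in Notch1f/f against WT and 9 in Notch1f/f against DNMAML, where the main test called 0, 1 and 0. DESeq2 called 2 in Notch1f/f against WT and 1 in Notch1f/f against DNMAML. With the replicate block, 2 passed in DNMAML against WT when only these groups were fitted, and 2 in Notch1f/f against WT in all 9 libraries, although the numbers did not pair Notch1f/f with WT. The replicate block changed no other call. The causes were not tested.

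When each library was left out in turn, the median log2 difference of the 38 genes in DNMAML against WT ran from 0.11 (without DNMAML replicate 1) to 0.38, and the count of genes past the threshold in Notch1f/f against WT from 1 to 2 (Rsad2 joined without Notch1f/f replicate 3). With 3 libraries in a group and leukocyte, platelet and immediate early genes differing between libraries, differences of the size seen for most of the 38 genes could not be told from the spread. Depth was lowest for Mx1, with 10 counts in a library, and for the interferon genes, which were not tested.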
